A study of Mus musculus with 6 samples.

Results

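The VEGF ligands and receptors were followed in whole lung of 6-week-old mice on the C57BL/6 background. The members are 10 genes chosen by symbol: the 5 ligand genes Vegfa, Vegfb, Vegfc, Figf (the older symbol of Vegfd) and Pgf, the 3 receptor tyrosine kinases Flt1, Kdr and Flt4, and the 2 neuropilins Nrp1 and Nrp2. All 10 were found among the 23284 gene symbols of the deposited table. The study compared 3 mice carrying the Fra-2 transgene (Fra-2tg) with 3 wild-type littermates, 1 poly(A) RNA library per mouse. Fra-2 is the product of Fosl2, an AP-1 transcription factor. The sources used here do not name the promoter that drives the transgene, and the labels give no sex. Values are FPKM, fragment numbers divided by gene length and library size, so that levels can be set side by side between genes.

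VEGF-A is the main survival and growth factor of blood endothelium, and in the alveolus it is made largely by alveolar type 1 cells. It binds VEGFR-2, the product of Kdr, which carries most of the signal, and VEGFR-1, the product of Flt1, which also exists in a soluble form that traps ligand. Of the receptor tyrosine kinases, VEGF-B and placental growth factor (Pgf) bind VEGFR-1 only. VEGF-C and VEGF-D are cleaved by proteases before they bind VEGFR-3, the product of Flt4, the receptor of lymphatic endothelium that blood capillaries of the lung also carry. Neuropilins are co-receptors shared with class 3 semaphorins. In mouse lung, VEGF-A from type 1 cells is needed for the capillary cells named aerocytes, which are marked by high Car4 and high Kdr.

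Promoter letters are shown for 4 of the genes that were lower in Fra-2tg lung, as the sequences in which an AP-1 site was looked for. Each line holds the 250 bases before a RefSeq start site of build GRCm38.p6, read 5′ to 3′ on the gene's strand. Capitals mark GGGCGG, the core bound by Sp1-type factors, and ACGTG or GCGTG, the cores of hypoxia response elements, on either strand. The windows are chr17:46032378-46032627 for Vegfa, chr5:75978456-75978705 for Kdr and chr5:147726012-147726261 for Flt1, all on the minus strand. That of Nrp1 is chr8:128358823-128359072 on the plus strand.
Vegfa: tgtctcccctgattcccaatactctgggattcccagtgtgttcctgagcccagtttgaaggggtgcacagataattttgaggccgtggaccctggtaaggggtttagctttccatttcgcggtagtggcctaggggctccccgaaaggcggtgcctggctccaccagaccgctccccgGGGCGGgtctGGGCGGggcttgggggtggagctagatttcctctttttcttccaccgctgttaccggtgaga
Kdr: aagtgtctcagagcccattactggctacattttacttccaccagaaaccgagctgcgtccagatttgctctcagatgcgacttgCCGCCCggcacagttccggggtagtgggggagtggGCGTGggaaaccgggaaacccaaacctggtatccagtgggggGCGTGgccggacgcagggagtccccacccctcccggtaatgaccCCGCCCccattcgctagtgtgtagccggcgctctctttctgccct
Flt1: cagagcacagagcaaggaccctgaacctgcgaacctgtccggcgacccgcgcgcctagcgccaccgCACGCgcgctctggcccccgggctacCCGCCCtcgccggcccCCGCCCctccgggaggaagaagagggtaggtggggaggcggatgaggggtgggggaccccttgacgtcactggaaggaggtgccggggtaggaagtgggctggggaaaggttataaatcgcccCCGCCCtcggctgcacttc
Nrp1: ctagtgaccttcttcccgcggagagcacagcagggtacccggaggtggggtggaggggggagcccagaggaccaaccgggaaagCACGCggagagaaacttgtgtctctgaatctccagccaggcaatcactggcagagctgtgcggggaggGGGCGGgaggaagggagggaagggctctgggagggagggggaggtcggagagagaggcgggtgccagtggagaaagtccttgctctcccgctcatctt

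The AP-1 motif TGANTCA, searched on both strands, was in none of the 12 windows of the members (Vegfa and Pgf have more than 1 start site). Among all 32851 RefSeq mouse promoter windows of the same length, 6.75% held it, so 12 windows are too few to show a shortage. Only TGANTCA was searched as an AP-1 motif. The Flt1 window shown above holds tgacgtca, a longer run of letters that this search does not match. GGGCGG was in 10 of the 12 windows, against 32.7% of all windows, and GCGTG in 7, against 28.2%. ACGTG was in 1, at the inner Vegfa start site, against 16.6%. In that Vegfa window 218 of the 250 bases lie in annotated exons. So do all 250 bases of the Pgf and Flt4 windows and 144 bases of that of Figf, with 0 to 32 in the others. GC content of the members' windows was 42.4% (Figf) to 76.4% (Vegfb), with a median of 52.4% over all windows. Every window of the members but that of Figf was above this median, and motif shares were not compared at like GC content. Letters within a window of this length are a description and say nothing of sites farther away.

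Each library's FPKM values summed to 593094 to 646668 in Fra-2tg and 542233 to 664456 in wild type. How many fragments lie behind a value is unknown. Fosl2 itself was 12.3, 17.4 and 15.8 FPKM in Fra-2tg, against 11.1, 13.9 and 11.2 FPKM in wild type (log2 fold change 0.30 ± 0.14 (SE), limma adjusted p = 0.158). Whether its row holds all transgene transcripts is not stated, so it does not check the labels. As a check of the tissue, the endothelial marker Pecam1 was at 293 to 302 FPKM in Fra-2tg and 280 to 314 FPKM in wild type. In the test described below, 8 of 16 pan-endothelial markers were called lower and 1 higher, against 13% and 13.6% of all tested genes. The list summed to 2525 to 2744 FPKM in Fra-2tg and 3431 to 3782 FPKM in wild type. In whole lung, fewer cells of a type and less RNA per cell cannot be told apart.

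Of the 10 members, 5 fell in Fra-2tg lung, 2 rose and 3 did not pass the test. VEGF-A and the 3 receptor tyrosine kinases were lower together with Nrp1, while Pgf and Vegfc were higher. The test was limma on log2(FPKM + 1) with Benjamini-Hochberg adjustment over 14855 genes whose mean over the libraries reached 0.5 FPKM, and calls needed an adjusted p under 0.05. All 10 members passed that filter. Calls made up 26.7% of all tested genes, 13.6% higher and 13% lower. Higher genes were 51.1% of these calls, and 25% with values rescaled to equal library sums, where 1 member rose and 5 fell. The sums for this rescaling leave out the genes Sftpc and Scgb1a1. The groups did not overlap for 9 of the 10 members, against 45.7% of all tested genes. The median log2 fold change was -0.30 over the members and 0.00 over all tested genes.

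**Figure D1:**
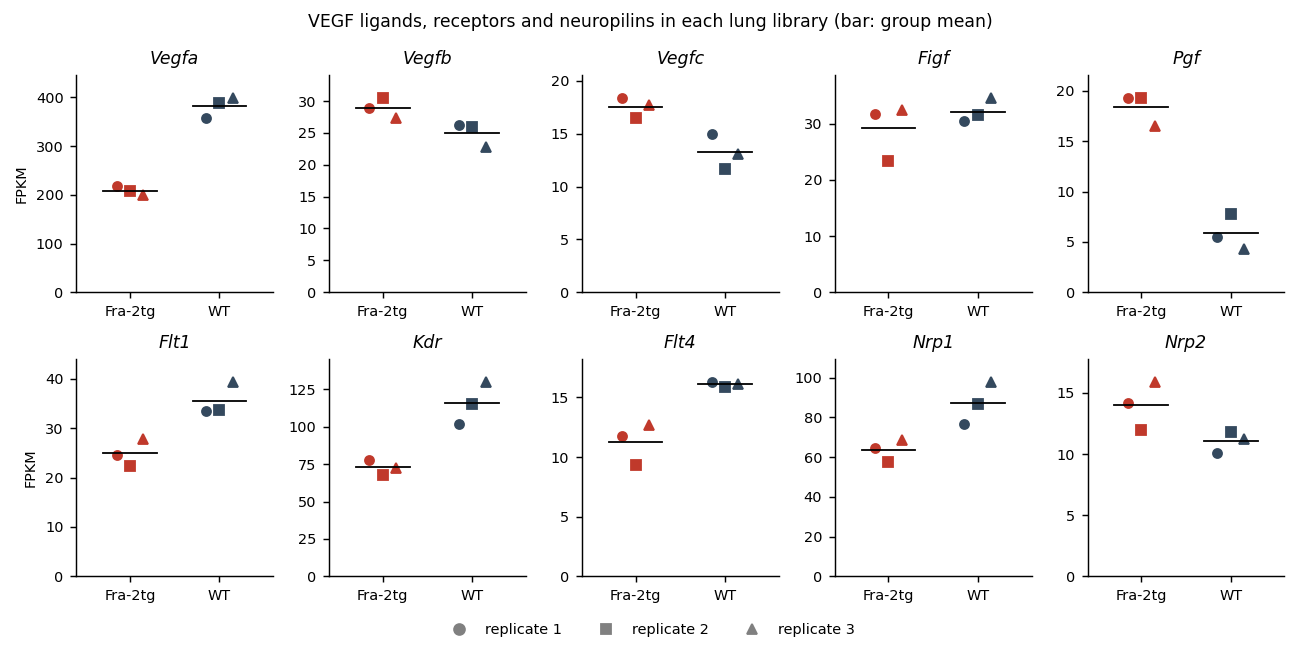
FPKM of each gene in each library (y axis, from 0), with 3 Fra-2tg libraries in red on the left and 3 wild-type libraries in dark blue on the right; symbols mark the replicate and bars the group mean. Figf is the only gene whose groups overlap, and Vegfa is the most abundant gene in both groups.

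Among the ligands, Vegfa fell to 0.546 times its wild-type level. Vegfa (chromosome 17, 46016993 to 46032369, minus strand) was 218, 208 and 199 FPKM in Fra-2tg replicates 1 to 3, against 357, 388 and 399 FPKM in wild type. Every Fra-2tg library lay far below the lowest wild-type library, and both groups were tight. The mean was 208 ± 9.23 FPKM in Fra-2tg and 382 ± 21.9 FPKM in wild type (SD, n = 3 each). The log2 fold change was -0.87 ± 0.07 (SE, limma adjusted p = 0.0012). The gene stood at the 98.3rd percentile of mean FPKM among tested genes. The annotation lists 13 Vegfa transcripts, 8 of them coding, and the table does not separate them, so the splice forms that differ in matrix binding are summed.

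Pgf, a ligand of VEGFR-1 that is scarce in most healthy tissue, moved the other way. Pgf (chromosome 12, 85166635 to 85177790, minus strand) was 19.3, 19.3 and 16.5 FPKM in Fra-2tg, against 5.51, 7.79 and 4.25 FPKM in wild type. The lowest Fra-2tg value was above the highest wild-type value, that of replicate 2. The ratio of means was 3.15, with 18.4 ± 1.61 FPKM in Fra-2tg and 5.85 ± 1.79 FPKM in wild type, and the log2 fold change was 1.53 ± 0.18 (limma adjusted p = 0.00257). Leaving out any 1 library gave log2 fold changes of 1.36 to 1.73, all called.

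The VEGFR-3 ligands split. Vegfc (chromosome 8, 54077606 to 54187096, plus strand) was 18.4, 16.5 and 17.7 FPKM in Fra-2tg, against 15.0, 11.7 and 13.1 FPKM in wild type. The groups stood apart by a small margin, with a ratio of means of 1.32 and a log2 fold change of 0.38 ± 0.09 (limma adjusted p = 0.0267). The call was lost without wild type replicate 2 or 3 and without Fra-2tg replicate 1 or 3 (limma adjusted p = 0.0596, 0.0843, 0.0878 and 0.0686), and with values rescaled to equal library sums (0.135). Figf (chromosome X, 164373378 to 164402650, plus strand), whose product in mouse binds VEGFR-3, was 31.8, 23.3 and 32.5 FPKM in Fra-2tg, against 30.4, 31.5 and 34.6 FPKM in wild type. The groups overlapped, with Fra-2tg replicate 2 the lowest and wild type replicate 3 the highest library, and the log2 fold change was -0.15 ± 0.13 (limma adjusted p = 0.438).

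Vegfb, a VEGFR-1 ligand known from heart muscle and brown fat, did not pass the test. Vegfb (chromosome 19, 6982473 to 6987651, minus strand) was 28.9, 30.5 and 27.4 FPKM in Fra-2tg, against 26.2, 26.0 and 22.8 FPKM in wild type. The groups did not overlap, but the log2 fold change was 0.20 ± 0.07 (limma adjusted p = 0.0873). With equal library sums it was 0.06. Markers of muscle of heart and pulmonary vein summed to 111 to 204 FPKM in Fra-2tg and 352 to 576 FPKM in wild type, and 9 of 10 were called lower, among them Mb (0.0959 times wild type), Myh6 (0.213), Actc1 (0.283), Myl7 (0.296) and Tnnt2 (0.362). Fat markers summed to 64.9 to 105 FPKM in Fra-2tg and 87.9 to 125 FPKM in wild type. That sum includes Fabp4, which is also on the list of macrophage markers and was not called (limma adjusted p = 0.221). Fabp4 was 47.5, 86.3 and 51.4 FPKM in Fra-2tg, against 46, 42 and 48 FPKM in wild type. Of the 7 tested fat markers 5 were called lower, namely Adipoq (0.212), Plin1 (0.225), Retn (0.233), Cfd (0.254) and Cidec (0.387). Their part in the Vegfb value was not tested.

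All 3 receptor tyrosine kinases fell. Kdr (chromosome 5, 75932827 to 75978458, minus strand), the main signalling receptor, was 78.0, 67.7 and 72.7 FPKM in Fra-2tg, against 102, 115 and 130 FPKM in wild type. All Fra-2tg libraries lay below all wild-type libraries, and wild type spread more widely. The means were 72.8 ± 5.19 FPKM in Fra-2tg and 115 ± 13.9 FPKM in wild type, 0.631 times wild type, with a log2 fold change of -0.65 ± 0.10 (limma adjusted p = 0.00539). The call held with any 1 library left out (log2 fold changes -0.74 to -0.56).

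Flt1 (chromosome 5, 147561604 to 147726011, minus strand), the receptor of VEGF-A, VEGF-B and Pgf, was 24.5, 22.3 and 27.9 FPKM in Fra-2tg, against 33.5, 33.7 and 39.4 FPKM in wild type. Fra-2tg lay below wild type throughout, and replicate 3 was the highest in each group. The ratio of means was 0.701 and the log2 fold change -0.50 ± 0.10 (limma adjusted p = 0.0136). The membrane and soluble forms share most of the transcript and are summed in the table.

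Flt4 (chromosome 11, 49609263 to 49652739, plus strand) was 11.8, 9.31 and 12.7 FPKM in Fra-2tg, against 16.3, 15.9 and 16.1 FPKM in wild type. The wild-type libraries were nearly level, with a coefficient of variation of 1.29%, against 15.6% in Fra-2tg, where replicate 2 was lowest. The ratio of means was 0.701, the same as for Flt1, and the log2 fold change -0.49 ± 0.11 (limma adjusted p = 0.0188). Without wild type replicate 1 or 3 the adjusted p was 0.0508 or 0.063.

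The neuropilins parted from each other. Nrp1 (chromosome 8, 128358604 to 128503363, plus strand), the co-receptor of VEGFR-2, was 64.4, 57.4 and 68.5 FPKM in Fra-2tg, against 76.8, 86.9 and 97.8 FPKM in wild type. No Fra-2tg library reached the lowest wild-type library, with a ratio of means of 0.728 and a log2 fold change of -0.45 ± 0.11 (limma adjusted p = 0.0234). The call was lost without wild type replicate 2 or 3 or Fra-2tg replicate 1 or 2 (limma adjusted p = 0.0571, 0.0675, 0.0642 and 0.0579). Nrp2 (chromosome 1, 62703285 to 62818695, plus strand), the partner of VEGFR-3, was 14.2, 12.0 and 15.9 FPKM in Fra-2tg, against 10.1, 11.8 and 11.2 FPKM in wild type. Its lowest Fra-2tg library lay just above its highest wild-type library. The log2 fold change of 0.31 ± 0.11 did not pass (limma adjusted p = 0.0791), but did so without Fra-2tg replicate 2 (0.0274). An antisense gene, Gm29083, and a gene on the same strand, Gm37121, overlap Nrp2. Whether counting used the strand is not stated, and the strand would not separate Gm37121 from Nrp2.

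**Figure D2:**
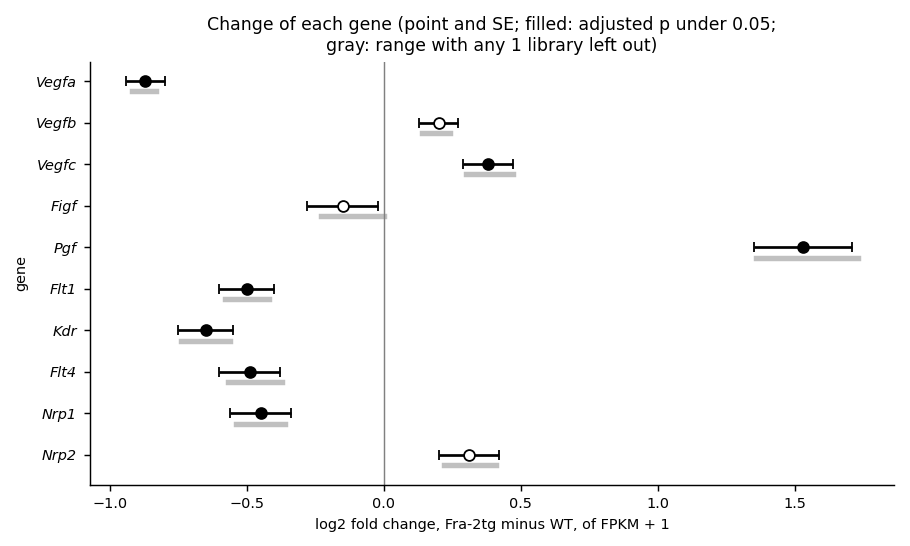
Log2 fold change of FPKM + 1, Fra-2tg minus wild type (x axis), for each gene (y axis), with its SE; filled points passed an adjusted p under 0.05 and gray bars span the values with any 1 library left out. Vegfa at -0.87 and Pgf at 1.53 lie farthest from 0 in each direction, and the gray bar of Figf reaches 0.

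The order of levels also shifted within the family. Vegfa, Kdr and Nrp1 were the 3 most abundant members in both groups, but the ranges of Kdr and Nrp1 overlapped in Fra-2tg and not in wild type. Within every library of both groups Kdr was above Nrp1. Pgf was the seventh of the members in Fra-2tg, overlapping with Vegfc, and the last in wild type, below all others. Flt4 was last in Fra-2tg and stood between Vegfb and Vegfc in wild type without overlapping either. In Fra-2tg its range overlapped with that of Nrp2, but Nrp2 was above Flt4 within every library. The ranges of Flt1, Figf and Vegfb did not separate in Fra-2tg, whereas in wild type those of Flt1 and Figf overlapped and both lay above Vegfb. Within libraries, Figf was above Flt1 in every Fra-2tg library (31.8, 23.3 and 32.5 against 24.5, 22.3 and 27.9 FPKM). In every wild-type library Flt1 was above Figf (33.5, 33.7 and 39.4 against 30.4, 31.5 and 34.6 FPKM).

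As a share of the ligand pool, VEGF-A lost ground to the other ligands. The 5 ligands summed to 293 to 316 FPKM in Fra-2tg and 434 to 474 FPKM in wild type. Vegfa made up 67.9% to 69.9% of that sum in Fra-2tg and 82.2% to 84.2% in wild type. Pgf made up 5.64% to 6.48% in Fra-2tg and 0.897% to 1.68% in wild type, so that Vegfa exceeded Pgf 10.8 to 12.0 times in Fra-2tg and 49.8 to 93.9 times in wild type. The 3 receptors summed to 99.3 to 114 FPKM in Fra-2tg and 152 to 185 FPKM in wild type. Ligand over receptor sums overlapped between the groups, at 2.59 to 3.00 in Fra-2tg and 2.56 to 2.86 in wild type. Nrp2 made up 17.2% to 18.9% of the neuropilin sum in Fra-2tg and 10.3% to 11.9% in wild type. These shares are descriptions of levels already given.

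Members were then set against each other and against lists of cell type markers, in 8 comparisons per library on the log2(FPKM + 1) scale. With 3 against 3 libraries the exact permutation test, two-sided, can reach no p below 0.1, and no comparison could pass. Nrp2 minus Nrp1 was 0.76 ± 0.08 (SE) higher in Fra-2tg than in wild type (exact permutation p = 0.1, adjusted over the 8 comparisons 0.16). Vegfb minus Vegfa was 1.07 ± 0.11 higher in Fra-2tg than in wild type (exact permutation p = 0.1, adjusted 0.16). Kdr minus Flt1 differed by -0.15 ± 0.10 with overlapping groups (exact permutation p = 0.2, adjusted 0.267).

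Vegfa was also lower relative to alveolar type 1 markers. Their mean log2 level was subtracted in each library, which left 1.37, 1.46 and 1.22 in Fra-2tg, against 1.77, 1.79 and 1.78 in wild type. The groups did not overlap, and the difference was -0.43 ± 0.07 (exact permutation p = 0.1, adjusted 0.16). The marker list itself was lower, with 10 of 16 genes called lower and 1 higher, and summed to 3186 to 3594 FPKM in Fra-2tg and 4133 to 4425 FPKM in wild type. Called lower were Hopx (0.61 times wild type), Emp2 (0.524), Igfbp2 (0.531) and the sodium channel subunit Scnn1g (0.664). The receptor gene Ager was 1415 ± 155 FPKM in Fra-2tg and 1592 ± 63.2 FPKM in wild type and was not called (limma adjusted p = 0.293). The water channel Aqp5 was called higher (limma adjusted p = 0.0486), but not without any single library other than wild type replicate 2 (0.0827 to 0.145) or with equal library sums (0.167).

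Against 16 pan-endothelial markers, Kdr was lower in every Fra-2tg library, while Flt1 and Nrp1 overlapped between the groups. Kdr minus the mean log2 level of these markers was -0.68, -0.78 and -0.66 in Fra-2tg, against -0.59, -0.38 and -0.28 in wild type, without overlap (difference -0.29 ± 0.10, exact permutation p = 0.1, adjusted 0.16). For Flt1 the difference was -0.14 ± 0.12 and for Nrp1 -0.09 ± 0.12, (exact permutation p = 0.3 and 0.6, adjusted 0.343 and 0.6). Whether the genes differ from each other in this was not tested. The markers did not move as one. Of the 16, 8 were called lower and 1 higher (12 and 1 with equal library sums). The lower ones included endoglin (Eng, 0.481 times wild type), Icam2 (0.5), Ramp2 (0.412) and VE-cadherin (Cdh5, 0.741). Tie1, an endothelial receptor kinase, was at 0.988 and not called (limma adjusted p = 0.835). The one higher gene, Emcn, named after its values were seen, was 186 ± 20.2 FPKM in Fra-2tg and 73.3 ± 14.1 FPKM in wild type.

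Flt4 minus the mean log2 level of 5 tested lymphatic markers was -0.26, -0.59 and -0.39 in Fra-2tg, against 0.01, 0.03 and 0.09 in wild type (difference -0.45 ± 0.10, exact permutation p = 0.1, adjusted 0.16). The groups did not overlap. The 5 markers were Lyve1, Reln, Ccl21a, Sema3d and Pdpn, of which Pdpn is also in the alveolar type 1 list. Flt4, which blood capillaries of the lung also carry, was not set against the pan-endothelial or capillary lists. Reln was near the filter, at 0.799 ± 0.211 FPKM in Fra-2tg and 0.88 ± 0.0723 FPKM in wild type. By limma, 0 of these 5 markers were called, and 0 had an unadjusted p under 0.05. Lyve1, a hyaluronan receptor, was 66.7 ± 16.4 FPKM in Fra-2tg and 82.8 ± 9.77 FPKM in wild type (limma adjusted p = 0.241). Prox1, the defining transcription factor of lymphatic endothelium, lay below the filter at 0.336 to 0.64 FPKM in Fra-2tg and 0.37 to 0.395 FPKM in wild type. Mmrn1 was listed at 0 in all 6 libraries.

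**Figure D3:**
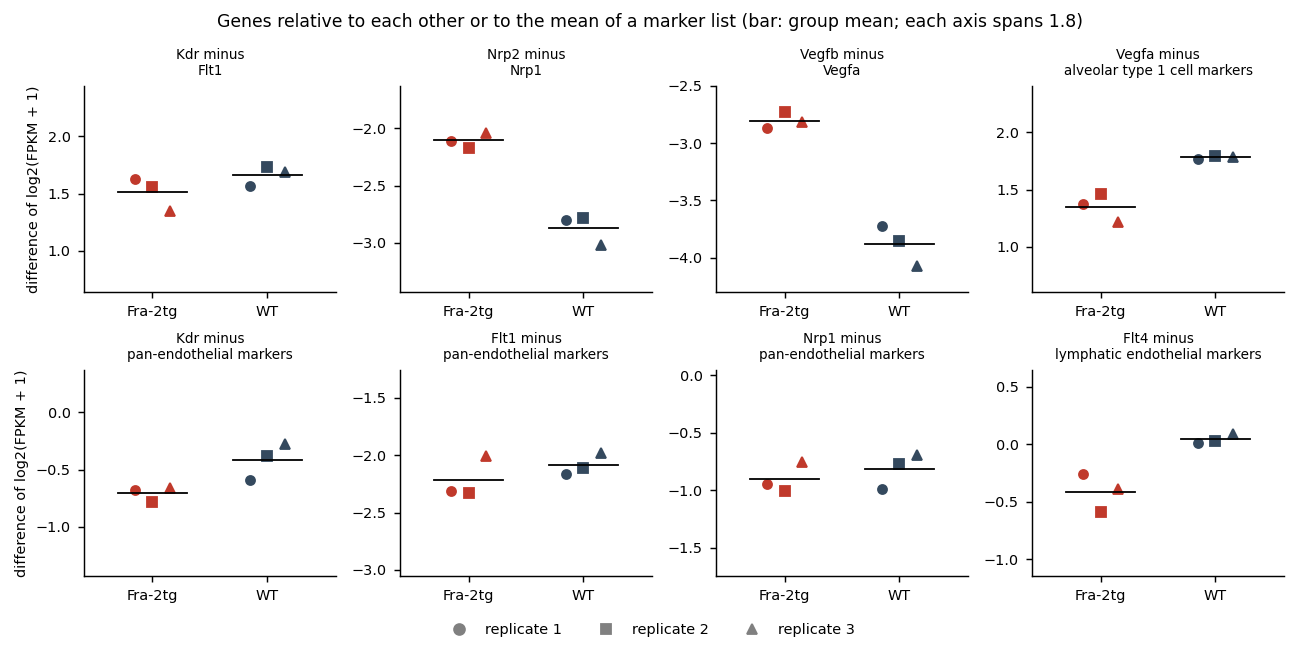
Difference of log2(FPKM + 1) between a gene and another gene, or between a gene and the mean of a marker list (y axis, each spanning 1.8), in 3 Fra-2tg libraries on the left and 3 wild-type libraries on the right; bars are group means. The groups stand apart for Nrp2 minus Nrp1, Vegfb minus Vegfa and for Vegfa, Kdr and Flt4 against their marker lists, and overlap for Kdr minus Flt1 and for Flt1 and Nrp1 against endothelial markers.

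Most aerocyte markers were lower in Fra-2tg lung. Of 8 such genes without Kdr, 7 were called lower and 1 higher, with a median log2 fold change of -1.46, against 26.7% of all tested genes called and a median of 0.00. Ednrb, an endothelin receptor, was 4.52, 4.81 and 5.71 FPKM in Fra-2tg, against 29.1, 27.1 and 35.4 FPKM in wild type. Fibin was at 0.0617 times wild type, apelin (Apln) at 0.294 and the sulfotransferase Chst1 at 0.38. Car4, the carbonic anhydrase that gives these cells their usual marker, was 213, 239 and 210 FPKM in Fra-2tg, against 172, 186 and 181 FPKM in wild type. It was called higher (limma adjusted p = 0.0275), but not with any 1 library other than Fra-2tg replicate 3 left out (0.0505 to 0.086) or with equal library sums (0.13). Of 7 general capillary markers, 4 were called lower and 1 higher. Gpihbp1, which anchors lipoprotein lipase, was at 0.507 times wild type and Plvap, of endothelial diaphragms, at 0.38, while the chemokine Cxcl12 rose 1.57-fold. The apelin receptor gene Aplnr was 93.1 ± 31.3 FPKM in Fra-2tg and 54.2 ± 4.64 FPKM in wild type and was not called (limma adjusted p = 0.0533).

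Genes known to be induced by VEGF-A in endothelium moved both ways. Of 18, 6 were called lower and 4 higher, with a median log2 fold change of -0.20. Esm1, a proteoglycan of endothelial tip cells, was 0.757, 0.843 and 0.826 FPKM in Fra-2tg, against 7.79, 8.27 and 9.01 FPKM in wild type (log2 fold change -2.37 ± 0.08, limma adjusted p = 6.01e-05). The groups lay far apart and were tight. Igfbp3 fell to 0.216 times wild type and Apln to 0.294. In the other direction the netrin receptor Unc5b rose 2.08-fold and, named after their values were seen, the urokinase receptor Plaur 2.54-fold, the protease Adamts1 2.97-fold and the homeobox gene Hlx 1.8-fold. Angpt2, the antagonist of the Tie2 receptor, was 12.3 ± 2.36 FPKM in Fra-2tg and 12.6 ± 1.03 FPKM in wild type (limma adjusted p = 0.831).

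**Figure D4:**
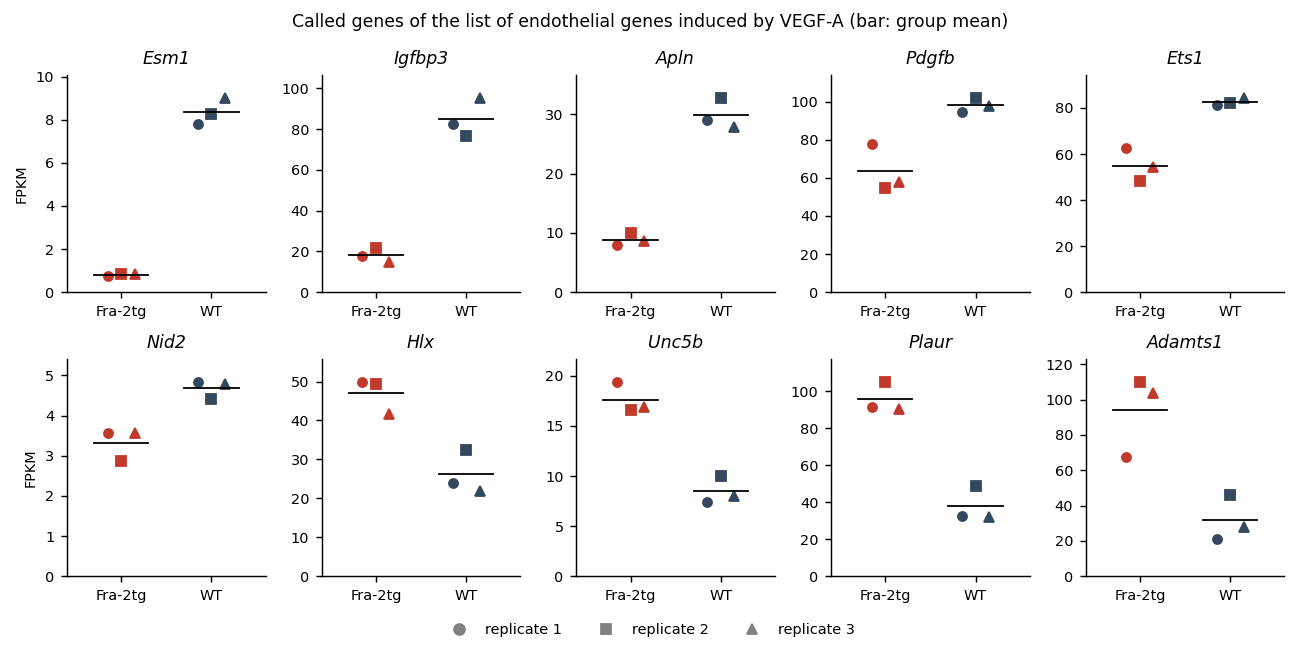
FPKM in each library (y axis, from 0) of the 10 called genes of the list of endothelial genes induced by VEGF-A, ordered from the most lowered to the most raised, with Fra-2tg on the left and wild type on the right; bars are group means. The groups stand apart in every panel, with Esm1, Igfbp3 and Apln the most lowered and Adamts1 the most raised.

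Proteins that bind, trap or switch off the receptors also split. Of 23 genes for receptor phosphatases, trafficking and feedback, 6 were called lower and 4 higher (9 and 3 with equal library sums). Clec14a, an endothelial lectin that binds Mmrn2, was at 0.278 times wild type (limma adjusted p = 0.00043), whereas Mmrn2 rose 1.49-fold. Ptprb, the endothelial phosphatase VE-PTP that acts on VEGFR-2, was at 0.471 times wild type. Dab2, an endocytic adaptor that macrophages also express, rose 2.02-fold. The phosphatases Ptprj and Ptpn1 were at 0.891 and 1.05 times wild type and not called (limma adjusted p = 0.153 and 0.433).

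Downstream of the receptors few genes passed. Of 38 signalling genes, 3 were called higher and 6 lower, which is 23.7% and close to the 26.7% of all tested genes (2 higher and 10 lower with equal library sums). Endothelial nitric oxide synthase (Nos3) was 30.6, 29.4 and 29.7 FPKM in Fra-2tg, against 11.5, 15.1 and 10.7 FPKM in wild type. The groups were well apart, with a ratio of means of 2.41 and a log2 fold change of 1.22 ± 0.12 (limma adjusted p = 0.00165). Nfatc2, a calcium-dependent transcription factor, rose 1.87-fold, the scaffold Iqgap1 1.4-fold (not called with equal library sums, limma adjusted p = 0.0693), and Pik3cb fell to 0.727 times wild type. Plcg1, the phospholipase recruited by VEGFR-2, was at 0.914 and not called (limma adjusted p = 0.234). The protein kinase C genes Prkca and Prkcb were at 0.662 and 0.513 and called lower, Prkca not without Fra-2tg replicate 1 or 2 and Prkcb not without these or wild type replicate 3. The 6 lower genes became 2 without wild type replicate 3 and 3 without Fra-2tg replicate 1 or 2.

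Among proteins that mature VEGF-C and VEGF-D, genes moved both ways. Of 8 tested genes, 4 were called higher and 2 lower. The urokinase Plau was 25.0, 25.9 and 23.0 FPKM in Fra-2tg, against 7.94, 11.4 and 6.67 FPKM in wild type, a ratio of means of 2.85. The tissue plasminogen activator Plat rose 1.44-fold, Furin 1.55-fold and cathepsin D (Ctsd) 1.36-fold. Ccbe1, which brings VEGF-C to its protease Adamts3, was at 0.457 times wild type (limma adjusted p = 0.00808). Adamts3 lay below the filter, at 0.173 ± 0.0449 FPKM in Fra-2tg and 0.409 ± 0.033 FPKM in wild type. Adamts14 was also called lower (limma adjusted p = 0.0431), but not without any 1 library except Fra-2tg replicate 1 (0.0703 to 0.11).

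Of 13 semaphorin, plexin and adaptor genes that share the neuropilins, 4 were called lower and 1 higher. Sema3g, a semaphorin of arterial endothelium, was at 0.626 times wild type (limma adjusted p = 0.00211) and Sema3f, the ligand of neuropilin-2, at 0.75 (0.00284). Sema3e, which signals through Plxnd1, was at 0.728, called in the full set but not without wild type replicate 2 or 3 or Fra-2tg replicate 1 (0.065 to 0.0982). Sema3a, the main ligand of neuropilin-1, was 5.95 ± 0.769 FPKM in Fra-2tg and 7.27 ± 0.704 FPKM in wild type and was not called (limma adjusted p = 0.121), nor were Sema3b at 0.86 and Sema3c at 1.2 times wild type (0.158 and 0.23). The one higher gene, Plxna3, rose 1.4-fold, and its call was lost with equal library sums (0.16) and without any 1 library but Fra-2tg replicate 2.

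Genes of the hypoxia-inducible factors (HIF), their oxygen sensors and hypoxia targets did not move in 1 direction. Of 26 tested, 7 were called lower and 6 higher (7 and 3 with equal library sums). Epas1, which encodes HIF-2 alpha and is abundant in lung endothelium, was 216, 217 and 226 FPKM in Fra-2tg, against 435, 393 and 457 FPKM in wild type. The groups did not overlap and the ratio of means was 0.513, with a log2 fold change of -0.96 ± 0.08 (limma adjusted p = 0.00114). Hif1a rose 1.5-fold (limma adjusted p = 0.0123), a call lost with equal library sums (0.0627). Their partner Arnt was at 0.902 and not called (0.168). Among targets, lactate dehydrogenase A (Ldha) rose 1.57-fold and Car9 1.89-fold, while Bnip3 fell to 0.705 times wild type.

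**Figure D5:**
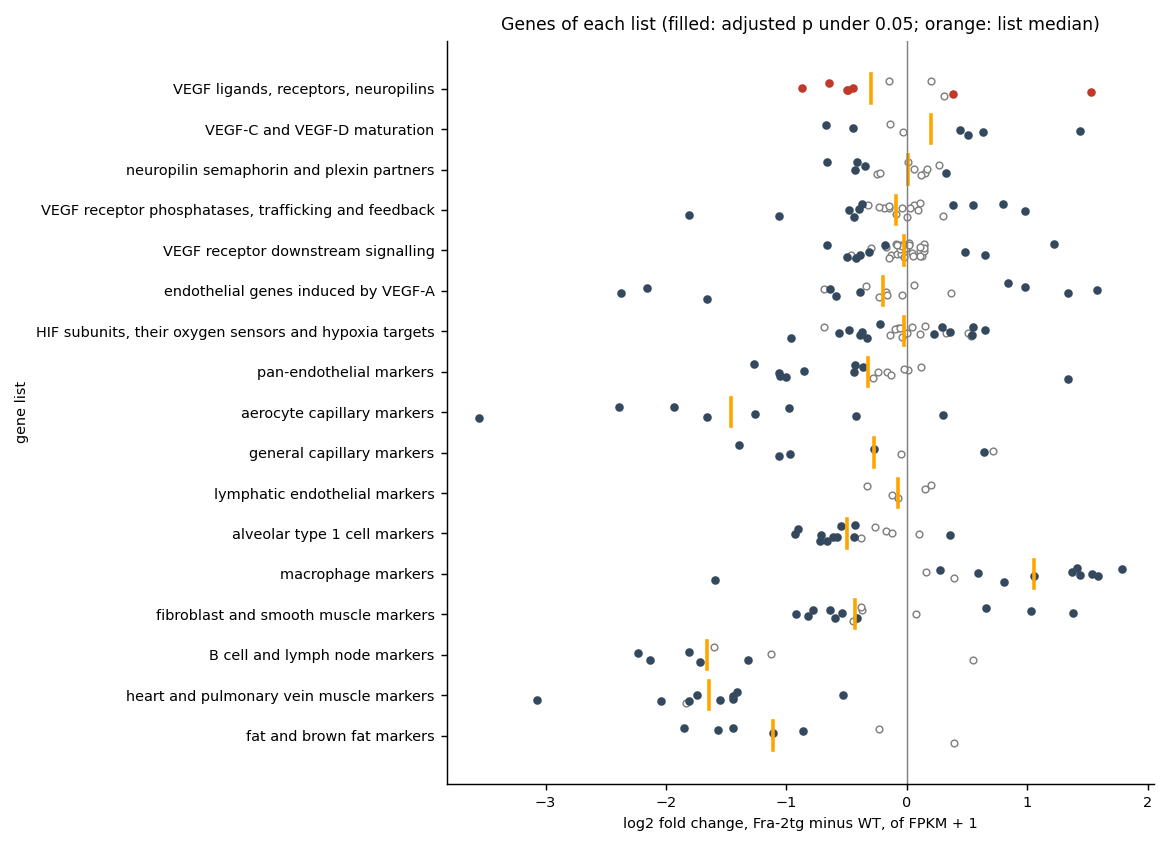
Log2 fold change of FPKM + 1, Fra-2tg minus wild type (x axis), for every tested gene of the members (red) and of each list (dark blue), 1 list per row; filled points passed an adjusted p under 0.05 and orange ticks are list medians. Aerocyte, heart muscle and B cell lists lie mostly left of 0 and the macrophage list mostly right. The median of the 38 signalling genes is -0.03, with Nos3 at 1.22 the farthest to the right.

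Markers of other cells that can express VEGF genes moved with genotype as well, and their part in the members' values was not tested. Of 13 macrophage markers, 10 were called higher and 1 lower. Mrc1 rose 2.75-fold, Itgax 3.53-fold, Cd68 2.64-fold, Emr1 2.23-fold and Siglec5 1.97-fold, whereas Lyz2, which shares sequence with Lyz1, was 1375 ± 184 FPKM in Fra-2tg and 4129 ± 237 FPKM in wild type. Because of Lyz2 the list's sum was lower, at 1893 to 2315 FPKM in Fra-2tg and 4263 to 4637 FPKM in wild type. Of 14 fibroblast and smooth muscle markers, 7 were called lower and 3 higher (10 and 2 with equal library sums). Pdgfra was at 0.557 times wild type, desmin (Des) at 0.639, Pi16 at 0.644 and Tcf21 at 0.69, while Col3a1 rose 2.59-fold and Pdgfrb, at 0.776, was not called (limma adjusted p = 0.0663). Of 8 B cell and lymph node markers 5 were called lower, among them Cd79a (0.196), Ms4a1 (0.209) and Cd79b (0.282). The list summed to 38.7 to 53.3 FPKM in Fra-2tg and 122 to 319 FPKM in wild type, where replicate 1 was highest. Glycam1 and Cxcl13, named after their values were seen, were not called (limma adjusted p = 0.415 and 0.642). Glycam1 was 40.4, 0.228 and 0 FPKM in wild type, against 0.111, 0.348 and 0.218 FPKM in Fra-2tg. Cxcl13 was 24.1, 2.89 and 1.42 FPKM in wild type, against 7.1, 9.31 and 7.96 FPKM in Fra-2tg. Without wild type replicate 1 Cxcl13 was called higher (limma adjusted p = 0.00921).

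Profiles across the 6 libraries were matched by the root mean square distance between centred log2(FPKM + 1) values, over the 10211 genes whose mean reached 5 FPKM. The 3 genes nearest to Pgf were Plau (distance 0.061), the thromboxane synthase Tbxas1 (0.083) and Bst1 (0.098), and its nearest family member, Vegfc, was much farther away at 0.644. Tbxas1 was 16.9, 18.1 and 17.3 FPKM in Fra-2tg, against 5.15, 7.27 and 4.36 FPKM in wild type, where, as for Pgf, replicate 2 was highest. Nearest to Vegfa were Lmcd1 (0.027), Cbx7 (0.047) and Ppp1r1b (0.048). Nearest to Kdr were C1qtnf7 (0.037), the receptor adaptor Grb14 (0.045) and the alveolar type 1 marker Akap5 (0.051). For Flt1 they were Pkd2, Nedd4l and Epb4.1l5 (0.025 to 0.029), and for Nrp1 Stard13, Arhgef26 and Sash1 (0.024 to 0.038). Flt1 and Nrp1 were each other's nearest family member, at 0.062. For Flt4 they were Eif4ebp2, Tns3 and Mal2 (0.044 to 0.052), and for Vegfc Hspa8, Tnfaip8l2 and Snrpd1 (0.064 to 0.069). These distances describe 6 libraries in 2 groups and carry no test.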

How the data were processed

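Poly(A) RNA of whole lung was sequenced from 3 Fra-2tg and 3 wild-type mice aged 6 weeks with a strand-marking kit, per the labels' protocols. The submitters' processing notes name Cufflinks 2.2.1, TopHat2 2.0.10, SAMtools 0.1.19, Bowtie 1.0.0, FastQC and the build GRCm38 (mm10), with no role or settings. The deposited values are the authors' FPKM per gene, 1 column per mouse, and are not counts. Fragment numbers are unknown. Steps between values below 0.15 FPKM gave rough relative depths of 0.923, 1.19 and 1.36 for Fra-2tg and 1, 0.904 and 0.832 for wild type.

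Computed here, with R 4.3.3 and limma 3.58.1, were log2(FPKM + 1) values, with a variance trend and a filter at a mean of 0.5 FPKM. P-values are two-sided and adjusted over 14855 genes. Each library is 1 mouse, so p-values measure the spread between these mice. The fit was tested on simulated data in 5 runs. It recovered 53% of 1.5-fold and 87% of 2-fold changes there, so a change of 1.5-fold could go uncalled. Far fewer genes changed in the simulation than were called in these data, so these shares do not measure recovery here.

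All 228 genes of 16 lists had a row, and 7 genes are in more than 1 list. Members are left out of these lists. The members and lists were chosen with earlier results of these data known. Outside the rule that follows, the tested lymphatic markers, Fabp4, Sftpc and Scgb1a1 are named, as are genes named after their values were seen. By rule, all members and the 3 nearest profiles of each called member are named. Of each list, the first 3 genes and up to 4 called genes with the smallest adjusted p are named. A gene that this rule names is not reported here. Promoters come from RefSeq (GRCm38.p6), coordinates from GENCODE (GRCm38). Exact permutation tests used scipy 1.17.1.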

Additional observations from a re-analysis of the deposited data

How the results depend on the processing

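Members called higher numbered 2, and 1 with equal library sums, where Vegfc was not called. With each library left out they numbered 1 to 3 (3 without Fra-2tg replicate 2, where Nrp2 was also called), and members called lower 3 to 5, against 5 in the full set. Without wild type replicate 3 the lower ones were Vegfa, Kdr and Flt1. Vegfa, Pgf, Kdr and Flt1 were called under all 14 alternatives. With each library left out the log2 fold change of Figf ran between -0.23 and 0.00, the last without Fra-2tg replicate 2. Equal library sums, taken without Sftpc and Scgb1a1, moved the median of all genes by -0.13 on the log2 scale. With them the calls over all genes became 1148 higher and 3438 lower, against 2027 and 1936. Vegfb (0.06) and Nrp2 (0.17) kept positive log2 fold changes there. The 8 differences between genes and marker lists kept their sign under all alternatives run. Of 448 list counts under alternatives, 42 moved by more than 1.5 times. Among them, with equal library sums, signalling genes called lower were 10 against 6, and genes of HIF, oxygen sensors and hypoxia targets called higher 3 against 6. Fat markers called lower were 2 with a filter at 5 FPKM against 5. Same-numbered libraries deviated from their group means with correlations of -0.0539, 0.0139 and 0.163, so the numbers were not taken to pair mice. With the replicate block 2 members were called higher and 5 lower, and semaphorin-group genes called lower were 2 against 4. The causes of these moves were not tested. Unknown fragment numbers limit what can be said of genes near the filter.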

Other observations

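The urokinase receptor gene Plaur, like the urokinase gene Plau, was higher in Fra-2tg lung. Plaur was 91.5, 105 and 90.2 FPKM in Fra-2tg, against 32.8, 48.5 and 31.9 FPKM in wild type, where replicate 2 was highest, as for Plau and Pgf. Plaur, Egr1, Vash2 and Vash1 were named after their values were seen. The immediate early gene Egr1 split within genotype, at 70.3, 11.7 and 10.6 FPKM in Fra-2tg, against 21.8, 56.0 and 33.2 FPKM in wild type. It was not called (limma adjusted p = 0.513), but was called lower without Fra-2tg replicate 1 (0.0416). Vash2, a vasohibin, was 1.33, 1.21 and 1 FPKM in Fra-2tg, against 0.263, 0.333 and 0.169 FPKM in wild type, a log2 fold change of 0.80 ± 0.10 (SE, limma adjusted p = 0.00315). Its relative Vash1 was at 0.93 times wild type and not called (0.365), and the difference between both was not tested.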
